A study of Mus musculus with 4 samples.

Results

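The data follow 10 genes of the skeleton in RNA from mouse thigh muscle: the bone matrix genes Ibsp, Spp1 and Bglap, the cartilage genes Col2a1, Acan, Col10a1 and Mmp13, and the osteoclast genes Acp5, Ctsk and Mmp9. They were found by symbol, through GENCODE mouse release M21 on GRCm38, among the 55573 gene IDs of the count tables, and all 10 matched 1 ID each. The genes were chosen by tissue, with their counts in these libraries already known. Their differences between groups and between libraries are therefore described, with no test of their own.

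The groups are 2 libraries from knockout mice (genotype vdr-/-, strain B6.129S4-Vdrtm1Mbd/J, called KO here) and 2 from wild-type C57BL/6J mice (WT), all 7 weeks old and fed regular chow after weaning. The knockout is carried by every cell of the animal and removes the function of the vitamin D receptor, gene Vdr. Quadriceps muscle of the hind limb was dissected, flash frozen and ground, and total RNA was sequenced. Replicates carry the numbers 1 and 2, and whether they stand for separate or pooled animals is not stated, so any spread between them may be technical.

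Bone is laid down by osteoblasts, which secrete collagen and the acidic proteins that bind mineral, and it is dissolved by osteoclasts, which release acid, an acid phosphatase and proteases onto its surface. Long bones lengthen at growth plates, where chondrocytes first make type II collagen and aggrecan and later, as hypertrophic cells, type X collagen and collagenase. Mice without the vitamin D receptor that are fed regular chow are known to develop rickets after weaning, with widened growth plates and poorly mineralised bone. Healthy muscle fibres are not a known source of most of these transcripts.

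Total counts were 21.34 M and 11.21 M in KO replicates 1 and 2, and 10.79 M and 13.03 M in WT replicates 1 and 2. Levels are given as TMM-normalised CPM, that is, counts divided by the library total in units of 1e+06 and by edgeR's scaling factor. The 10 genes taken as typical of skeletal muscle, such as Ckm, Acta1 and Myh4, summed to 94001 and 95702 CPM in the KO libraries and 107614 and 100210 CPM in the WT libraries, so all 4 libraries were muscle by these markers. By sex-linked genes the KO libraries were male and the WT libraries female, so sex and genotype cannot be told apart in any difference between the groups. Xist had 0 and 3 counts in KO and 1929 and 2778 counts in WT, and the Y-linked Ddx3y had 1594 and 739 counts in KO and 50 and 0 in WT, so WT replicate 1 also held some Y-linked reads. Vdr had 5 and 1 counts in KO and 5 and 0 in WT, too few to check the labels. KO replicate 1 stood apart from the other 3 libraries in 7 of the 10 skeletal genes, and results that rest on it are given with and without it.

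Ibsp encodes bone sialoprotein, an acidic matrix protein that binds hydroxyapatite and integrins (ENSMUSG00000029306, chromosome 5, 104299171 to 104311469, plus strand). It had 824 and 37 counts in KO replicates 1 and 2, and 1 and 0 counts in WT replicates 1 and 2. These stand for 39.1 and 3.15 CPM in KO and 0.0946 and 0 CPM in WT. Both KO libraries were above both WT libraries, and KO replicate 1 was 12.4 times KO replicate 2 (95% interval 8.93 to 17.8). This and all later intervals between libraries are exact Clopper-Pearson intervals that cover counting error only. KO replicate 2 alone stood at 73.7 times the summed WT libraries, with an interval whose lower end was 12.4.

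Spp1, osteopontin, is a related mineral-binding protein that macrophages also make. It lies 124 kb from Ibsp on the same strand of chromosome 5 (104435118 to 104441050), and 2 further genes of mineralised matrix, Dmp1 and Mepe, lie in the same cluster. Spp1 stood at 8.63 and 1.70 CPM in KO replicates 1 and 2 and at 1.89 and 0.623 CPM in WT replicates 1 and 2. KO replicate 2 lay between the WT libraries, so the groups overlapped. The other genes of the cluster were sparse. Dmp1, an osteocyte matrix protein, had 37 and 5 counts in KO and 5 and 9 in WT, and Mepe, another osteocyte protein, had 8 and 0 counts in KO and 0 and 0 in WT.

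Bglap encodes osteocalcin, a small calcium-binding protein of osteoblasts (ENSMUSG00000074483, chromosome 3, 88383501 to 88384464, minus strand). It had 113 and 5 counts in KO replicates 1 and 2 and 0 counts in both WT libraries. The lower end of its interval over the WT pair was 33.5 for KO replicate 1 and 1.83 for KO replicate 2. Its neighbour Bglap2, a second osteocalcin gene, had 53 and 0 counts in KO and 1 and 0 in WT. Bglap3, the third gene of the cluster, had 0 and 0 counts in KO and 0 and 1 in WT.

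The coding sequences of Bglap and Bglap2 are shown because reads of one can map to the other. They come from the GENCODE M21 transcripts on GRCm38, run 5′ to 3′ without the stop codon, and have the bases that differ in capitals.
Bglap: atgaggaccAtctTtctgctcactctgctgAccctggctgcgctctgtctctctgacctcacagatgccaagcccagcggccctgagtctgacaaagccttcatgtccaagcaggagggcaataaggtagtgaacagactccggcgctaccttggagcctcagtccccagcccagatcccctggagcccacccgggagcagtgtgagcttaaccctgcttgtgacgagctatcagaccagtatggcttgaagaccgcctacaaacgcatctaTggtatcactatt
Bglap2: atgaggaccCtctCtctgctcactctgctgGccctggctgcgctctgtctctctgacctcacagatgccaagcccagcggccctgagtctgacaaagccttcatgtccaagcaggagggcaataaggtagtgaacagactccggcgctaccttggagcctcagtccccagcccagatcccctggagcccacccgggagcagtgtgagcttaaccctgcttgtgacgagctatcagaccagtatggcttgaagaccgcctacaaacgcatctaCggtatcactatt
Over 285 bases they differ at 4 (98.6% identity) and share an identical run of 241 bases. No label says how reads that match both were counted, so the split between Bglap and Bglap2 is uncertain.

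**Figure D1:**
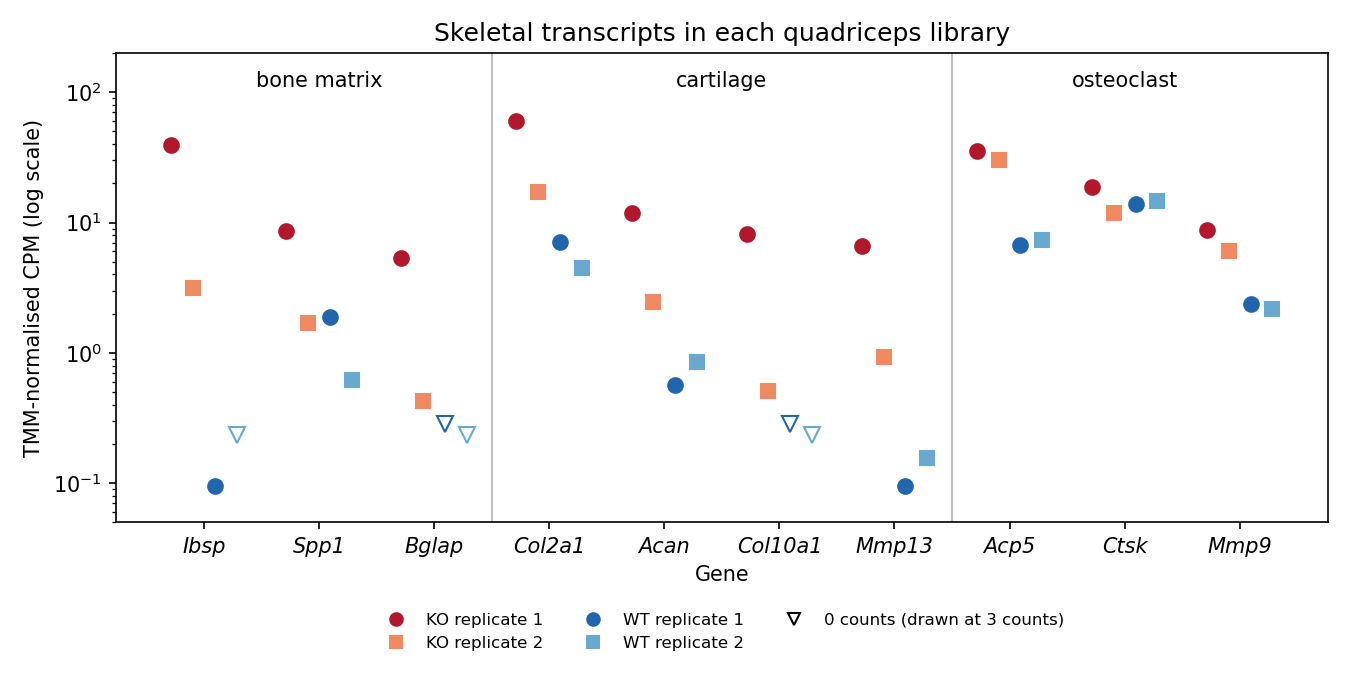
TMM-normalised CPM (log axis) of the 10 skeletal genes in KO replicates 1 and 2 (red circle, orange square) and WT replicates 1 and 2 (blue circle, light blue square), 1 point per library; open triangles mark 0 counts and are drawn at the level of 3 counts. KO replicate 1 is highest for every gene, KO replicate 2 is next for 8 genes, and for Acp5 and Mmp9 the KO libraries lie close together and above WT.

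Col2a1 encodes the chain of type II collagen, the main fibril of cartilage (ENSMUSG00000022483, chromosome 15, 97975602 to 98004695, minus strand). It had the highest CPM of the 10 genes in KO replicate 1. Levels were 60.3 and 17.1 CPM in KO replicates 1 and 2, and 7.10 and 4.52 CPM in WT replicates 1 and 2. The groups did not overlap, and KO replicate 1 was 3.52 times KO replicate 2 (3.04 to 4.11). KO replicate 2 alone was 3.01 times the WT pair (2.41 to 3.78). Col2a1 lies 65.0 kb from Vdr on chromosome 15, next to the targeted allele, which the strain name places on a 129S4 origin. Differences in Col2a1 that come from flanking sequence cannot be told apart here from those that come from the loss of the receptor.

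Acan encodes aggrecan, the large proteoglycan that holds water in cartilage (chromosome 7, 79053483 to 79115099). It stood at 11.9 and 2.47 CPM in KO and 0.568 and 0.857 CPM in WT. Both KO libraries were above both WT libraries, with KO replicate 1 at 4.82 times KO replicate 2 (3.28 to 7.35).

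Col10a1 and Mmp13 mark hypertrophic chondrocytes, and osteoblasts also make Mmp13, a collagenase. Col10a1 (chromosome 10, 34389981 to 34397085) had 172 and 6 counts in KO and 0 in both WT libraries. The lower end of its interval over the WT pair was 51.2 for KO replicate 1 and 2.35 for KO replicate 2. Col10a1 lies within Nt5dc1, a gene on the opposite strand with 139 and 49 counts in KO and 57 and 70 in WT. The exons of the pair share 18 bases, where their reads cannot be told apart. Mmp13 (chromosome 9, 7272514 to 7283331) had 140 and 11 counts in KO and 1 and 2 in WT. Its level in KO replicate 2 was 7.31 times the WT pair (1.93 to 40.8). Of the 10 genes, Col10a1 differed most between the KO libraries, at 15.98 times (7.19 to 44.1).

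Acp5 encodes tartrate-resistant acid phosphatase, the classical enzyme marker of osteoclasts, which activated macrophages also make (ENSMUSG00000001348, chromosome 9, 22126727 to 22135711, minus strand). It had 752 and 356 counts in KO and 71 and 94 in WT. Levels were 35.7 and 30.3 CPM in KO and 6.72 and 7.32 CPM in WT, a mean of 33.0 ± 3.80 CPM in KO and 7.02 ± 0.426 CPM in WT (SD, n = 2 each). The KO libraries were close to each other, at a ratio of 1.18 (1.04 to 1.34), and each stood above WT, at 5.06 times in KO replicate 1 and 4.30 times in KO replicate 2. A noncoding gene on the opposite strand, 6530413G14Rik, shares 137 exon bases with Acp5 and had 4 and 2 counts in KO and 2 and 2 in WT.

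Ctsk, cathepsin K, is the protease with which osteoclasts cut bone collagen, and fibroblasts express it as well. It stood at 18.6 and 11.8 CPM in KO and 13.8 and 14.6 CPM in WT, so the groups overlapped. Mmp9, gelatinase B, is made by osteoclasts, neutrophils and macrophages. It stood at 8.78 and 6.04 CPM in KO and 2.37 and 2.18 CPM in WT, with both KO libraries above both WT libraries. KO replicate 1 was 1.57 times KO replicate 2 for Ctsk (1.29 to 1.92) and 1.45 times for Mmp9 (1.10 to 1.94).

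Levels can be ranked between genes per kilobase of annotated exon. In KO replicate 1 the order was Ibsp at 18.9, Acp5 at 17.6, Ctsk at 12.3, Bglap at 8.67, Col2a1 at 6.52 and Spp1 at 5.24 CPM per kb, with the other 4 genes from 1.59 (Acan) to 2.61 (Col10a1). In KO replicate 2 Acp5 led with 14.9 CPM per kb, Ctsk had 7.82, and the other 8 lay between 0.163 and 1.85. In WT Ctsk led with 9.14 and 9.68 CPM per kb, Acp5 followed with 3.31 and 3.61, and no other gene passed 1.15. Ibsp thus stood first in KO replicate 1, while in WT it had 1 read in 2 libraries.

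The makeup of these counts also differed between the libraries. Of all counts to the 10 genes, the bone matrix genes took 26.1% in KO replicate 1 (24.8% to 27.5%), 7.09% in KO replicate 2 (5.48% to 8.99%), 6.09% in WT replicate 1 and 2.06% in WT replicate 2. The osteoclast genes took 31.0% in KO replicate 1 (29.7% to 32.4%), 64.7% in KO replicate 2 (61.4% to 67.9%), and 70.1% and 79.7% in WT. Per 100 counts of Col2a1 there were 64.8 counts of Ibsp in KO replicate 1 (59.3 to 70.8), 18.4 in KO replicate 2 (12.6 to 26.2) and 1.33 and 0 in WT. The cartilage pair Acan and Col2a1 kept a closer ratio, with 19.7 counts of Acan per 100 of Col2a1 in KO replicate 1 (17.2 to 22.6), 14.4 in KO replicate 2 (9.42 to 21.4), and 8 and 18.97 in WT. The KO libraries thus differed in the mix of skeletal transcripts as well as in their amount.

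The difference between the KO libraries split the 10 genes by role. All 10 were higher in KO replicate 1 than in KO replicate 2, as were 50.1% of the 13076 genes that passed the filter on low counts. Ratios above 4 were found for 6 of the 10 (Ibsp, Spp1, Bglap, Acan, Col10a1 and Mmp13). Bglap and Col10a1 did not pass the filter, and of the 8 genes that did, 4 had such a ratio, beside 0.283% of all tested genes. In the opposite direction 0.0918% of tested genes passed 4-fold and none of the 10 did, and between the WT libraries 0.964% passed it in either direction. Over all tested genes the ratio had a median of 1.00, and 95% of genes lay between 0.557 and 1.93. The intervals of the 7 bone matrix and cartilage genes lay wholly above that range, and the 3 osteoclast genes had ratios from 1.18 to 1.57. Among the 13075 tested genes with a count in both KO libraries, which leaves out Bglap and Col10a1, Ibsp had the highest ratio, Mmp13 ranked 11th from the top, Spp1 22nd, Acan 26th, Col2a1 50th and Acp5 2804th. In WT, where counts were lower, the ratio of replicate 1 over replicate 2 was 1.57 for Col2a1 (1.10 to 2.25) and 0.918 for Acp5 (0.665 to 1.26).

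**Figure D2:**
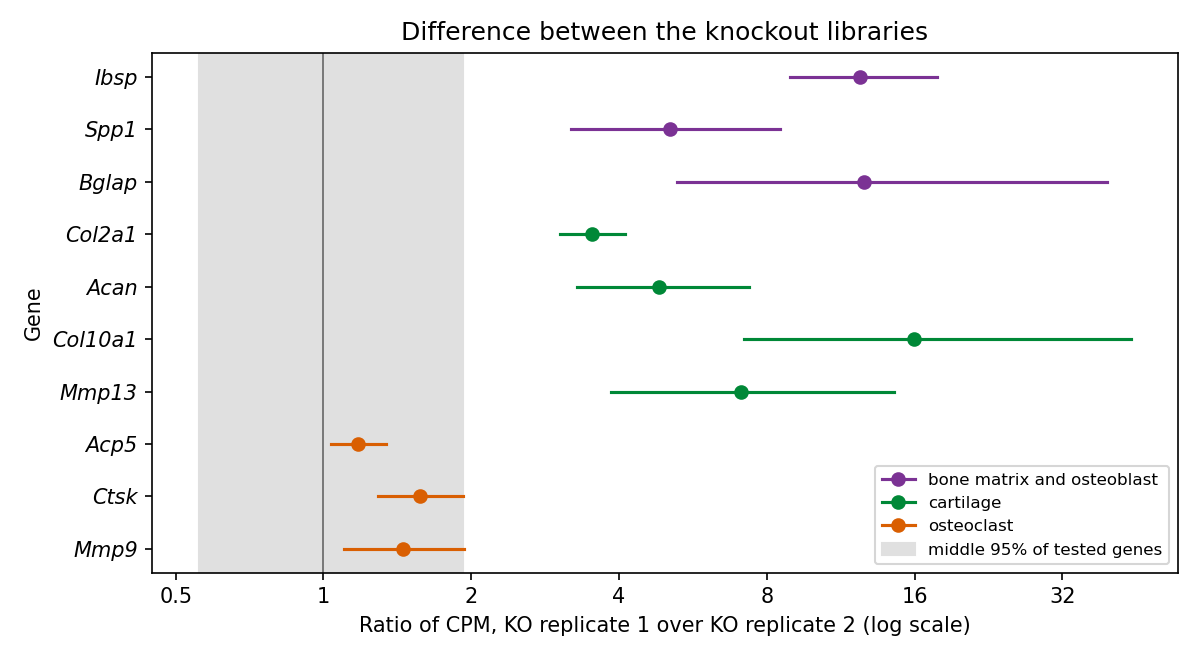
Ratio of CPM in KO replicate 1 over KO replicate 2 (log axis) for each skeletal gene, with the exact 95% counting interval as a line and the middle 95% of tested genes (0.557 to 1.93) as a grey band. The 7 bone matrix and cartilage genes lie to the right of the band, from 3.52 for Col2a1 to 15.98 for Col10a1, and the points of the 3 osteoclast genes lie inside it.

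For the contrast of genotypes, counts were fitted across all genes with edgeR's quasi-likelihood test and Benjamini-Hochberg adjustment, and a gene was called at an adjusted p below 0.05. Of the 10 genes, 8 passed the filter on low counts, and Bglap and Col10a1 did not. Of the 8, only Col2a1, Acp5, Ctsk and Mmp9 reached the count minimum in both WT libraries. Ibsp, Spp1, Acan and Mmp13 passed through their KO counts, so a difference was built into their selection. Acp5 and Mmp9 were called higher in KO and none lower, where 1.61% of all tested genes were called higher and 2.03% in either direction. As the genes were chosen with this contrast in view, nothing is read from that count.

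The log2 fold changes, KO over WT ± SE, were 8.72 ± 2.54 for Ibsp, 4.93 ± 1.57 for Mmp13, 3.38 ± 1.24 for Acan, 2.77 ± 0.97 for Col2a1 and 2.19 ± 1.20 for Spp1. For the osteoclast genes they were 2.23 ± 0.16 for Acp5, 1.73 ± 0.27 for Mmp9 and 0.11 ± 0.21 for Ctsk. The SEs of the 5 bone matrix and cartilage genes, from 0.97 to 2.54, were all larger than those of the 3 osteoclast genes. The value for Ibsp rests on 1 count in WT and is no measure of a bound. Both KO libraries were above both WT libraries for 8 of the 10 genes, and for 6 of the 8 tested ones, beside 23.0% of all tested genes. Spp1 and Ctsk were the exceptions.

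Leaving out KO replicate 1 lowered most of these values. The fit then takes the lone KO library to vary like the WT pair. The log2 fold change was 5.88 for Ibsp, 1.75 for Acan, 1.57 for Col2a1 and 0.48 for Spp1, and Mmp13 no longer passed the filter. For Acp5 it was 2.10 and for Mmp9 1.41, and for Ctsk it changed sign to -0.27. Ibsp, with 37 counts in KO replicate 2 and 1 and 0 in WT, was tested here only through the lone KO library. A difference was thus built into its selection in this fit too. Ibsp, Col2a1 and Acp5 were called, 3 of 7 tested, where 1.32% of all genes were called higher, and Mmp9 lost its call. Without KO replicate 2, 9 of 10 tested genes were called higher, all but Ctsk, where 1.85% of all genes were called higher and 0.363% lower. Ibsp, Mmp13, Bglap and Col10a1 had 0 to 2 counts per WT library, so that fit tested them only through KO replicate 1. A difference was built into their selection, and nothing is read from the number of calls in either fit. The summed level of the 10 genes was 203 and 74.5 CPM in KO and 32.6 and 30.3 CPM in WT, 4.41 times as high in KO. That ratio was 2.37 without KO replicate 1 and 6.46 without KO replicate 2. In bulk tissue, a difference in the number of cells of a type and a difference in RNA per cell cannot be told apart.

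**Figure D3:**
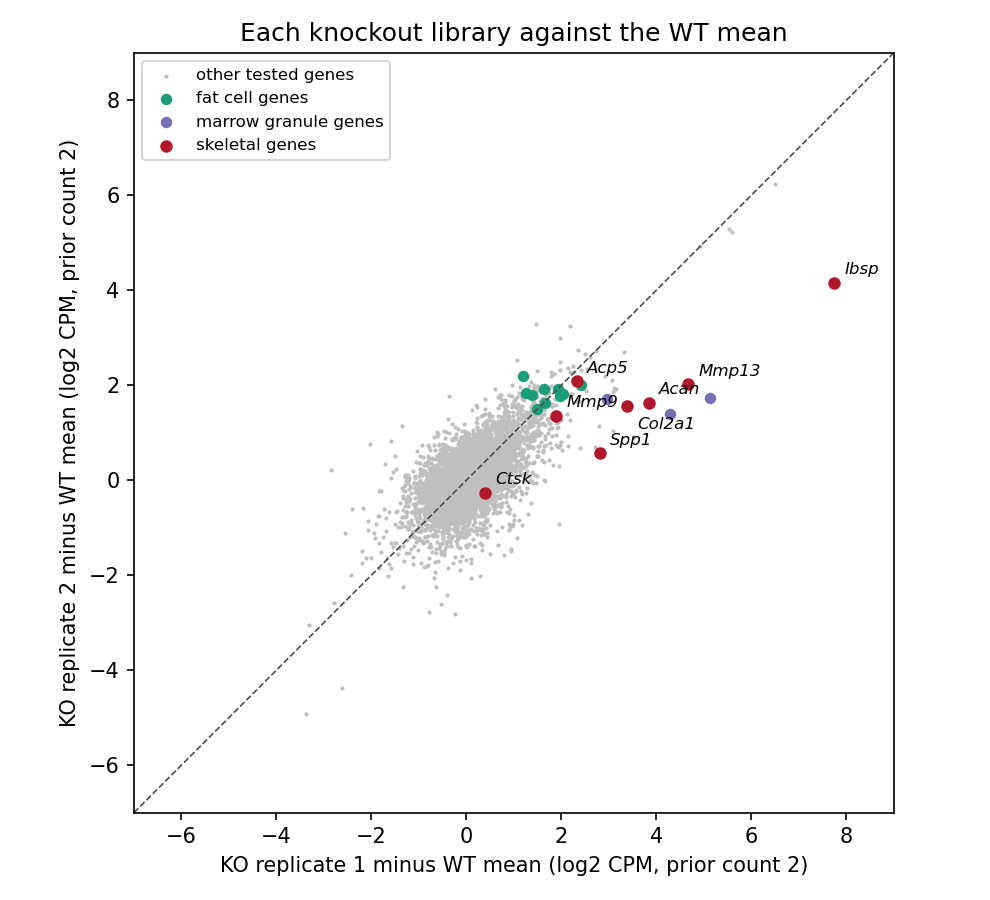
Log2 CPM of KO replicate 1 (horizontal axis) and of KO replicate 2 (vertical axis), each minus the mean of the same 2 WT libraries, for the 13076 tested genes; the dashed line marks equal values, and 8 skeletal genes are labelled. Acp5 and Mmp9 lie near the line beside the fat cell genes, and Ibsp, Mmp13, Acan, Col2a1 and Spp1 lie to its right, as marrow granule genes do.

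Other genes of bone, cartilage and osteoclasts were listed by tissue. Of 56 such genes 32 were tested, 1 was called lower and none higher in KO (background 0.413% lower and 1.61% higher), and 7 of the 32 had an unadjusted p below 0.05, beside 1829 of all 13076. Their pooled median log2 fold change was 0.06, beside -0.0007 over all tested genes. The called gene was Cilp, a matrix protein of the middle layer of cartilage and of tendon, at 48.7 ± 1.27 CPM in KO and 75.0 ± 0.938 CPM in WT (log2 fold change -0.62 ± 0.12, edgeR adjusted p = 0.0260). Its call was lost without KO replicate 1, KO replicate 2 or WT replicate 1 (adjusted p = 0.0823, 0.0982 and 0.0709). DESeq2 also gave 1 call, lower in KO, among these genes. The genes called without KO replicate 2, all higher in KO, were Bglap2, Hapln1 and Fos (log2 fold changes 5.63, 4.66 and 3.10). Bglap2 and Hapln1 were tested there only through their counts in KO replicate 1, so a difference was built into their selection. Without KO replicate 1 only Fos was called, also higher (1.05). Without WT replicate 2 Cilp and Sox6, a chondrocyte transcription factor, were called lower.

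In the osteoblast and osteocyte list, 9 of 20 genes were tested and none was called, with a median log2 fold change of 0.56, which was -0.23 without KO replicate 1 and 0.95 without KO replicate 2. Its 3 genes with the smallest p were Smpd3, Pth1r and Phex, with edgeR adjusted p from 0.348 to 0.706. Smpd3 is an enzyme needed for mineralisation (0.57 ± 0.25). Pth1r is the parathyroid hormone receptor (0.67 ± 0.35), and Phex is a peptidase of osteocytes (0.70 ± 0.64). The sum of the list was set by Col1a1 and Col1a2, the chains of type I collagen, which fibroblasts of muscle also make. Untested genes of the list had counts almost wholly in KO replicate 1: beside Bglap2 and Mepe, these were Sp7, the transcription factor osterix, with 13 and 0 counts in KO and 1 and 0 in WT, and Sost and Tnfsf11, each with 3 and 0 counts in KO and 0 in WT. These 5 of 20 were picked for having no count in KO replicate 2 and at most 3 in WT, after their values were seen.

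In the chondrocyte list, 13 of 20 genes were tested, Cilp alone was called, and the median log2 fold change was 0.05. Hapln1, the link protein that ties aggrecan to hyaluronan, had 95 and 3 counts in KO and 1 and 3 in WT, and it was named after its values were seen. Its ratio between the KO libraries was 17.7 (5.86 to 87.1). In this list it alone had an interval above the range of 95% of tested genes. In the osteoblast and osteocyte list 2 genes did, and in the osteoclast list 1. KO replicate 1 was above KO replicate 2 for 18 of 20 chondrocyte, 17 of 20 osteoblast and osteocyte and 11 of 16 osteoclast genes. Median log2 ratios of their tested genes were 0.95, 0.77 and 0.07, beside 0.0003 over all tested genes. Sox9, the master regulator of chondrocytes, had 49 and 18 counts in KO and 16 and 29 in WT. In the osteoclast list, 10 of 16 genes were tested and none was called, with a median of 0.09. Tcirg1, a proton pump subunit of osteoclasts (0.61 ± 0.21), Car2, a carbonic anhydrase (0.73 ± 0.27), and Ostm1, a partner of a chloride channel (-0.25 ± 0.15), had the smallest p, with edgeR adjusted p from 0.212 to 0.510. Defining genes of mature osteoclasts were sparse in every library: Calcr, the calcitonin receptor, had 8 and 5 counts in KO and 10 and 10 in WT, Dcstamp, needed for cell fusion, had 4 and 2 in KO and 6 and 1 in WT, and Siglec15 had none. Ocstamp, also needed for fusion, had 9 and 0 counts in KO and 0 and 2 in WT, Atp6v0d2, a proton pump subunit, had 10 and 0 in KO and 0 and 1 in WT, and Oscar, an osteoclast receptor, had 2 and 0 in KO and 0 and 2 in WT.

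Markers of other cells that lie next to bone were read in the same libraries. Genes of neutrophil granules and marrow, 12 in the list, summed to 36.2 and 4.26 CPM in KO and 0.757 and 1.87 CPM in WT. KO replicate 1 was 8.51 times KO replicate 2 (6.39 to 11.6), beside 10.1 times for the summed bone matrix genes (7.79 to 13.2). S100a9, a calcium-binding protein of neutrophils, had 219 and 10 counts in KO and 1 and 3 in WT. Ngp, a neutrophil granule protein, had 87 and 3 counts in KO and 0 in both WT libraries. Mpo, myeloperoxidase of immature granulocytes, had 22 and 0 in KO and 0 in both WT libraries. Ngp and Mpo were named after their values were seen. The interval of the ratio between the KO libraries lay above 1.93, the upper end of the range given above, for 7 of the 12 genes. For Elane, Prtn3, Ctsg, Lcn2 and Retnlg it did not. Elane had 8 and 2 counts in KO and Prtn3 had 2 and 2. The ratio was 2.55 for Lcn2 (1.35 to 5.24) and 2.31 for Retnlg (0.990 to 6.24). Of the 12 genes, 0 and 4 had no count in KO replicates 1 and 2, and 8 and 4 had none in WT replicates 1 and 2. Only Lcn2, S100a8 and S100a9 of this list were tested and none was called (edgeR adjusted p from 0.0733 to 0.507). The part of marrow cells in the results on bone and cartilage genes was not tested.

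Erythroid genes, 7 in the list and also found in blood, summed to 550 and 389 CPM in KO and 242 and 266 CPM in WT. Of 5 tested, Hbb-bt, a beta globin, and Alas2, the first enzyme of haem synthesis in red cells, were called higher (1.06 ± 0.18 and 1.16 ± 0.22, edgeR adjusted p = 0.0135 and 0.0281). The call of Alas2 was lost without KO replicate 1 (adjusted p = 0.169) and without WT replicate 2 (0.0775), and that of Hbb-bt was kept without any 1 of the 4 libraries (0.00236 to 0.0440). The globins are a family of near-identical copies, so their split is uncertain. The B cell and plasma cell list summed to 65.5 and 64.7 CPM in KO and 61.8 and 55.8 CPM in WT, with Igkc, an antibody light chain, called higher of 4 tested (3.33 ± 0.48, edgeR adjusted p = 0.00615). Cd79b, a part of the B cell receptor, had 33 and 1 counts in KO and 3 and 4 in WT.

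Fat cells and macrophages did not follow the bone and cartilage genes. The 10 fat cell genes summed to 4531 and 4122 CPM in KO and 1091 and 1300 CPM in WT, at a ratio between the KO libraries of 1.10 (1.09 to 1.11), and 9 of 10 were called higher, beside 1.61% of all genes. The 6 with the smallest p were Cidec, the protease gene Cfd, the hormone gene Adipoq, Pck1, Adig and Retn, with log2 fold changes from 1.63 (Retn) to 2.23 (Cfd). Macrophage genes summed to 391 and 420 CPM in KO and 332 and 385 CPM in WT, with none of 12 called (edgeR adjusted p from 0.189 for Cd14, with C1qa and C1qb next). Tendon genes summed to 1189 and 907 CPM in KO and 1286 and 1098 CPM in WT, and none of 8 was called, with the smallest p for Scx, Thbs4 and Mkx. In the muscle list none of 10 was called, with the smallest p for Ttn, Actn3 and Myh1. Without KO replicate 1, 2 of the 8 tendon genes were called lower: Tnmd and Kera (edgeR adjusted p = 0.0062 and 0.00699).

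**Figure D4:**
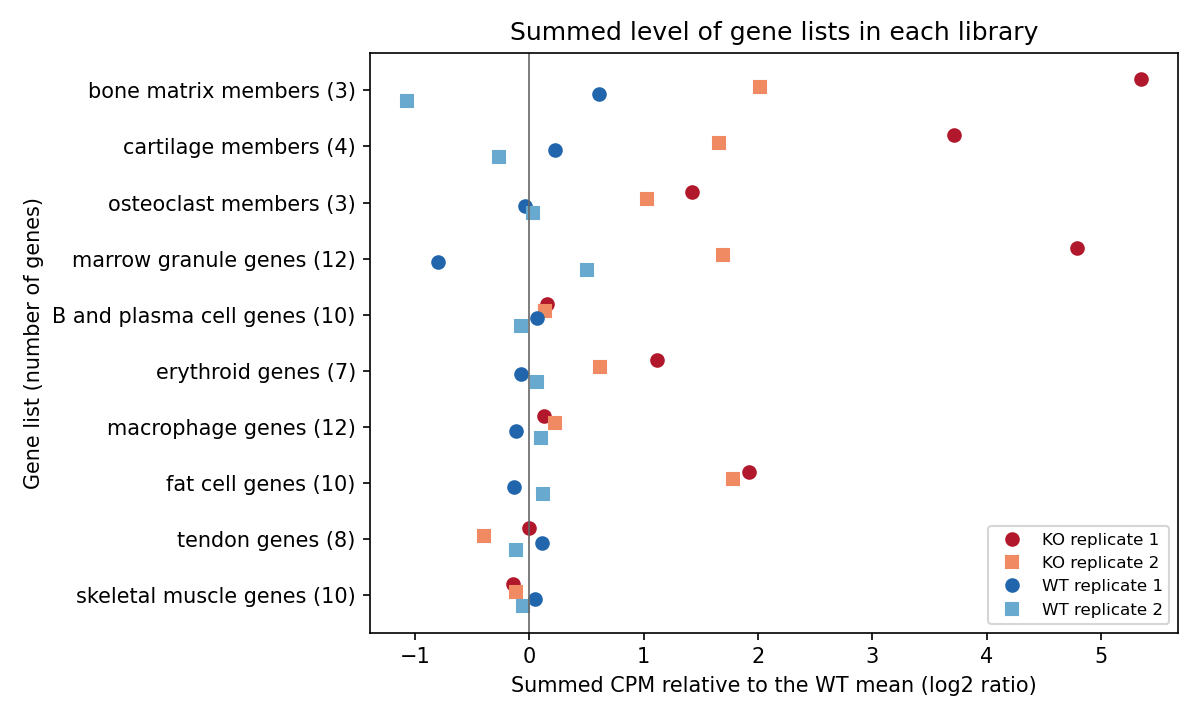
Summed CPM of each gene list in each library as a log2 ratio to the mean of the 2 WT libraries, with 1 point per library (KO replicates as red circle and orange square, WT replicates as blue circle and light blue square). The bone matrix, cartilage and marrow granule lists are far higher in KO replicate 1 than in KO replicate 2, the fat cell list is alike in both, and the muscle list lies near 0 in all 4.

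The profiles closest to Ibsp and to Acp5 over the 4 libraries were found among tested genes other than the 10, by the Euclidean distance between centred log2 CPM values. Nearest to Ibsp was S100a9, at a distance of 2.70, followed by the Y-linked Uty (2.92) and Eif2s3y (2.94), S100a8 (3.24), the Y-linked Kdm5d (3.28) and Igkc (3.82). These are long distances beside those for Acp5. The Y-linked genes were close between the KO libraries, unlike Ibsp, with Uty at 18.8 and 15.8 CPM in KO and 1.04 and 0 CPM in WT. Nearest to Acp5 was Cfd, the fat cell protease adipsin, at a distance of 0.13, with 2138 and 1604 CPM in KO and 379 and 420 CPM in WT. Ces1f, Apoc3, Hsd11b1, Serpina3c and Cidec came next (0.23 to 0.29), and Cidec, a lipid droplet protein, is a gene of the fat cell list. These distances rest on 4 libraries, of which 2 share each genotype.

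The genes with the highest ratios of KO replicate 1 over KO replicate 2, among 11907 tested genes with at least 30 counts in the KO libraries, were Ibsp (12.4), S100a9 (12.2), Ass1 (10.0), Grap2 (8.64), S100a8 (8.23), Atf3 (7.59), Mmp13 (7.09) and Fosb (6.72). Genes that did not pass the filter are left out of this order, and some had higher ratios, such as Camp, a neutrophil granule peptide, with 45 and 1 counts in KO and 0 in WT (25.1, 4.28 to 1012). Atf3 and Fosb are immediate-early transcription factors. Fos, a related factor that osteoclasts need, stood at 59.8 and 14.5 CPM in KO and 7.85 and 6.15 CPM in WT. Among the 100 highest of these ratios were 5 of the 8 skeletal genes ranked. At the other end stood Nr1d1 (0.117) and Ciart (0.131), both repressors of the circadian clock, and Rgs6 (0.144), followed by Angptl8, Cyp4f39, Cit, Ppp1r26 and Col26a1 (0.252 to 0.288).

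The 250 bases upstream of the start of Ibsp, Bglap and Mmp13 are shown because these genes had 0 to 3 counts in WT and differed strongly between the KO libraries. They are RefSeq windows on GRCm38.p6, on the strand of the gene, 5′ to 3′ and ending at the base before the start, and capitals mark matches to the motifs searched.
Ibsp: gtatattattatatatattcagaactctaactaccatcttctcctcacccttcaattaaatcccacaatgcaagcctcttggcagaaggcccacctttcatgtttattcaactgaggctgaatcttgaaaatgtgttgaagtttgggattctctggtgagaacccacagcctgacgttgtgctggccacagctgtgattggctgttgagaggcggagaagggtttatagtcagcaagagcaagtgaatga
Bglap: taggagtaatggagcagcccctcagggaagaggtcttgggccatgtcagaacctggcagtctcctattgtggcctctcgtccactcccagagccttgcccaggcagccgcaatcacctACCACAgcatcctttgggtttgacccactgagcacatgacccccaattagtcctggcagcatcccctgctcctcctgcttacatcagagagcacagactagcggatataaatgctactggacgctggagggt
Mmp13: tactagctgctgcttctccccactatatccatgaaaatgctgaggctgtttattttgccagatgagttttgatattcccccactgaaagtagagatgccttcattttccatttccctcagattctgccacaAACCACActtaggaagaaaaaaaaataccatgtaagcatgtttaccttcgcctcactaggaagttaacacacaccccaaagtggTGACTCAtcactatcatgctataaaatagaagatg
The windows lie at chr5:104299037-104299286 (plus strand), chr3:88384467-88384716 (minus strand) and chr9:7272264-7272513 (plus strand). The Ibsp window ends inside the gene as GENCODE annotates it, which starts at 104299171, so part of the window is not upstream of that start. Col10a1 also had 0 counts in WT and differed strongly between the KO libraries, and its window, which held no match, is not shown.

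Motifs were searched on both strands. The site of Runx factors, which include the osteoblast regulator Runx2, was taken as AACCACA and its core as ACCACA, which lies within it. The AP-1 site of Fos and Jun dimers was taken as TGAGTCA, and a vitamin D response element as the letters AGGTCA repeated after any 3 bases. The Runx core was added after the windows were seen. RefSeq windows were at hand for 8 of the 10 genes, 11 windows in all. The full Runx site was found for Mmp13 and Spp1 and its core also for Bglap, where 4.4% and 14.0% of 32851 windows of all genes hold them. The AP-1 site was found for Mmp13 alone, 35 to 29 bases upstream of the start, and 4.46% of windows hold it. The vitamin D response element was found in none of the 11 and in 2 of all 32851 windows. With so few matches anywhere, this exact search could not tell these genes from others. A match is a run of letters and says nothing of binding.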

How the data were processed

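The deposited files hold raw counts of reads per Ensembl gene, 1 column per library. The submitters' processing notes name STAR, Trimmomatic and DESeq2 and the build GRCm38 (mm10), and no source at hand gives versions, the strand setting or the handling of multi-mapping reads. Symbols were found for 55480 of 55573 IDs. Of 196 genes wholly under an exon of the opposite strand 58 had a count, against 1 of 341 under an exon of the same strand, a pattern of counting by strand. Per the labels, the kit was TruSeq RNA v2, which does not mark strand, so reads of genes that overlap on opposite strands cannot be told apart.

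The filterByExpr function of edgeR 4.0.16 (R 4.3.3; minimum count 10, minimum total 15) kept 13076 genes, and CPM are counts over total counts times TMM factors. Genotype was the only term of a robust quasi-likelihood fit with edgeR's newer bias-corrected method, and it was checked on simulated data. SEs come from the F statistic. Alternatives were other scalings, no filter, DESeq2 1.42.0, the replicate number as a block and leaving out each library. A library's total sets its precision: 3 counts stand for 0.141 to 0.278 CPM.

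The skeletal genes and the lists were chosen with earlier results of these data known. Names follow a rule: all 10 genes; in each list the called genes up to 6 and otherwise the 3 with the smallest p; the 8 highest and lowest ratios between KO libraries; and the 6 profiles nearest to Ibsp and Acp5. Other genes named with their counts were chosen after their values were seen. Protein sequences were not used here.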

Additional observations from a re-analysis of the deposited data

How the results depend on the processing

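The number of skeletal genes called higher was 2 with RLE scaling, with total counts only and without the filter, and 3 with DESeq2, which added Ibsp. It was 7 with the replicate number as a block and ran from 2 to 9 when a library was left out. The labels do not say whether same-numbered libraries share anything beyond the number. Their deviations correlated at 0.039 over genes, and 1 such value cannot decide it. The block moved the count over all genes from 265 to 346. That count was 476 without the filter and 216 to 332 with a library left out. Calls among osteoblast, chondrocyte and osteoclast genes ran from 0 (without WT replicate 1) to 3 (without KO replicate 2). Calls among genes of other cell types were 12, and 12 to 22 (without KO replicate 2) with a library left out. The cause of these moves was not tested. The summed ratio of KO replicate 1 over KO replicate 2 stayed between 2.57 and 2.73 over 4 scalings, and KO over WT between 4.39 and 4.53. No difference in Vdr was detectable at this depth.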
